A study of Rattus norvegicus with 16 samples.

Results

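DNA replication copies the genome in S phase of the cell cycle, and the genes described here encode its machinery and the enzymes that supply its nucleotides. The set was a list of 47 gene symbols, and each gene was measured by its probe set with the highest mean over the 16 arrays. Of the 47 genes 43 were named on the array, 41 of them were tested, and Gins1 and Rrm1 lay under a filter on low values. The 41 were among 11796 genes tested in all. The expression of Mcm3, Mcm4, Pole2 and Chaf1a was not analysed here.

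The arrays measured RNA of the mammary gland of female Wistar Han rats at postnatal day (PND) 35 and PND50. Dams, in groups of 15, were gavaged once a day from gestational day 1 until weaning at PND21. They received genistein, a soy isoflavone that binds estrogen receptors, vinclozolin (labelled Vinclozoline), a fungicide with antiandrogenic action, or both, and each compound was given at 1 mg/kg daily, alone or combined. The control groups are labelled untreated, and all dams ate the same purified diet free of phytoestrogens. The offspring, 1 female per litter, were not dosed after weaning. The 4 treatments and 2 ages made 8 groups of 2 arrays, and each array carried RNA pooled from 5 animals, so the spread is that between pools and not between animals. The labels call the rats pubertal or cycling and do not give the cycle stage of a pool.

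Replication starts at origins, which the origin recognition complex marks and where Cdc6 and Cdt1 load the Mcm2 to Mcm7 helicase. Cdc45 and the GINS proteins then activate the helicase, polymerases copy both strands on a sliding clamp, and nucleosomes are put back behind the fork. Many of these genes are known targets of E2F transcription factors, which switch them on late in G1, so their transcripts mark proliferating cells. In the pubertal mammary gland such cells are abundant in the growing end buds of the ducts.

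All 41 genes had a negative log2 fold change from PND35 to PND50 when the 4 treatments were averaged, and 28 of them fell, where 51.9% of all genes tested were negative and 25.2% fell. None rose, and without the mixture groups 5 of the 41 fell, where 18.4% of all genes were called in either direction. The share of all genes that fell was not counted separately in that fit. The medians within each treatment were -0.41 after the mixture, -0.25 after genistein, -0.18 in the controls and 0.06 after vinclozolin. The difference between these medians was not tested, and single genes are compared between treatments further on. Differences are given on the log2 scale throughout, and a gene is said to have risen or fallen where limma's test had an adjusted p under 0.05 (Benjamini-Hochberg over all genes tested).

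The promoters of 40 of the 47 genes stood in RefSeq's table of the assembly GRCr8, as windows from 250 bases before to 50 after the annotated start. E2F-type letters (TTTCCCGC, TTTCGCGC, TTTGCCGC or TTTGGCGC on either strand, overlapping matches kept) stood in 18 of these 40 genes, or 45.0%, against 2.73% of 21842 windows of protein-coding genes. The letters CCAAT, the core of the NF-Y motif, stood in 57.5% of the 40 and in 38% of the coding windows. Both stood in 27.5% and 0.971%. The letters TTTGAA or TTCGAA of the CHR element, known from mitotic promoters and searched on both strands, stood in 17.5% and 18.5%. A match is a description of letters and not of a bound site. The stretches before the start are printed 5′ to 3′ on the strand of the gene for Mcm5, Mcm6 and Tyms. The age change of Mcm6 and Tyms differed between the mixture and vinclozolin, in a comparison added after the data were seen. Against the controls neither gene passed limma's test. The values of the helicase subunit gene Mcm5 followed the other genes most closely. Capitals mark E2F-type and CCAAT letters on either strand.
Mcm5, chr19:13488563-13488812, plus strand: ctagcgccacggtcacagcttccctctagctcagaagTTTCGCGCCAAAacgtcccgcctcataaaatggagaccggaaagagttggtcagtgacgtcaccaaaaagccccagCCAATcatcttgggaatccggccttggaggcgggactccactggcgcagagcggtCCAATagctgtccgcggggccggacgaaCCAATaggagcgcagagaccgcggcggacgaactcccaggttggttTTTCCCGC
Mcm6, chr13:42404353-42404602, minus strand: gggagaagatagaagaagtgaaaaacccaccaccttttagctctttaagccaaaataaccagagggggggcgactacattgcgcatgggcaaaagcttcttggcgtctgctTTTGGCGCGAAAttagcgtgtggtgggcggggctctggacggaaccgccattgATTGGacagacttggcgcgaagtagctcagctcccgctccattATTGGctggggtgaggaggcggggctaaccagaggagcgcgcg
Tyms, chr9:120776084-120776333, minus strand: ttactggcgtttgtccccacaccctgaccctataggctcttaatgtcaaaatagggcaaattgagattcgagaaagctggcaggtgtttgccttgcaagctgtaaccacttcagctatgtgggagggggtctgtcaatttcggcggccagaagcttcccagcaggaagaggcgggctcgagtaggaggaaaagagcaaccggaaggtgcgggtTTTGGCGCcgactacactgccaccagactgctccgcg
In Mcm6 a pair of overlapping E2F-type sites on opposite strands began 139 and 135 bases before the start, with CCAAT letters at 86 and 43. Mcm5 had such a pair at 213 and 209 and a further site at 8 bases, with CCAAT letters at 137, 82 and 54. Tyms had a single E2F-type site, 37 bases before the start, and no CCAAT letters. The counts of genes that fell were close with and without these letters. Of 15 tested genes with an E2F-type site 10 fell in the average (median -0.16), and of 20 without one 13 fell (median -0.17). The 6 tested genes with no promoter entry, Rrm2 among them, were outside this comparison, and 5 of them fell (median -0.29).

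**Figure D1:**
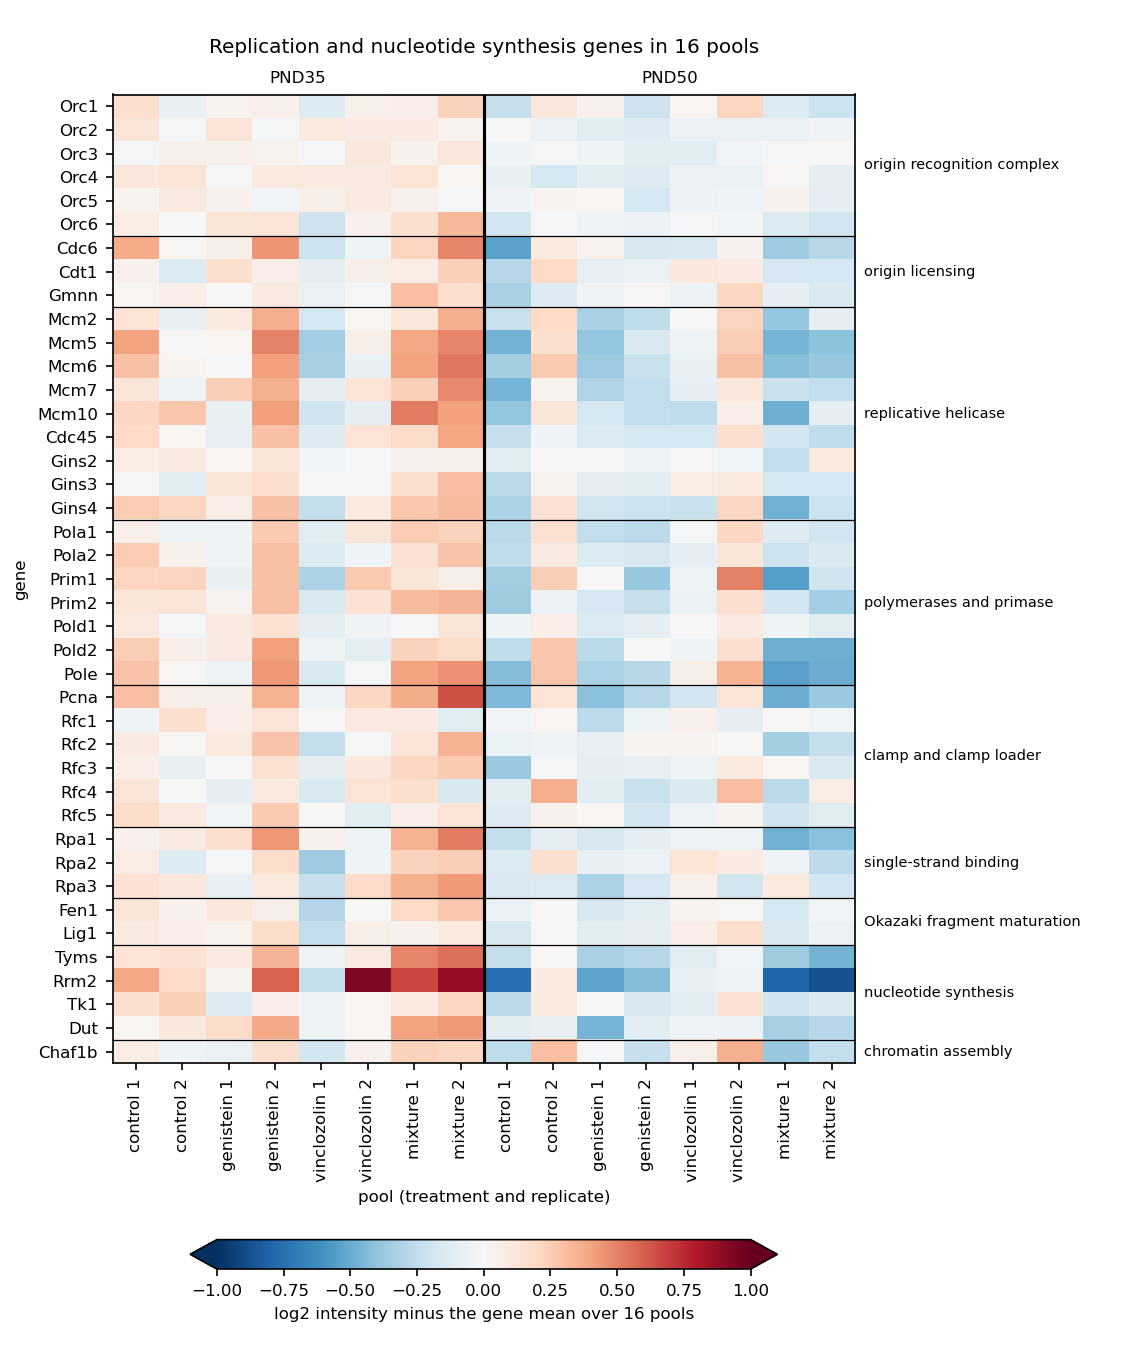
Centred log2 intensity of the 41 tested genes (vertical axis, ordered by role) in the 16 pools (horizontal axis), with PND35 left and PND50 right of the line; red is above and blue below the mean of the gene over all pools, and the scale ends at 1 and -1. Both mixture groups stand out, red at PND35 and blue at PND50, and the rows Orc2 to Orc5 and Rfc1 are pale.

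The deposited values were log2 intensities whose array medians lay between 7.05 and 7.145. The pools of a group correlated with r between 0.9893, in vinclozolin at PND35, and 0.9966 over all probe sets. A probe set's level is not comparable between genes. The median SE of a log2 fold change was 0.0471 in the age average, 0.0941 between single groups and 0.133 for a difference of differences.

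The comparison of ages asked how the gland changed across puberty. Averaged over the 4 treatments (n = 8 pools per age), 28 of the 41 genes fell and none rose, where 25.2% of all genes tested fell and 51.9% were negative. Their median was -0.18 and that of all genes -0.01. A single gene, Dut, had all PND50 pools below all PND35 pools, where 3.98% of all genes did so. The count of 28 was 20 to 29 when 1 pool was left out. Without the mixture groups, an average chosen after the data were seen, 5 of the 41 fell (Orc2, Orc4, Rpa1, Tyms and Dut, 39 of 41 negative), where 18.4% of all genes were called in either direction. Without the vinclozolin groups, also chosen afterwards, 32 fell, where 43% of all genes were called in either direction. For both of these averages the share of all genes that fell was not counted separately. In bulk tissue, fewer cells of a type and less RNA per cell cannot be told apart.

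Among the nucleotide synthesis genes 3 of 4 fell. Rrm2, the small subunit of ribonucleotide reductase, ranged from 7.86 to 9.03 in the PND35 pools (median 8.58) and from 7.22 to 8.19 in the PND50 pools (median 7.62). It fell 1.81-fold, by 0.86 on the log2 scale (SE 0.17, adjusted p = 0.00199), the largest change among the 41, although the ranges overlapped. Its other probe set had -0.76 (SE 0.15). Tyms, thymidylate synthase, ranged from 8.52 to 9.11 in the PND35 pools (median 8.69) and from 8.09 to 8.57 in the PND50 pools (median 8.29), and fell by 0.45 (SE 0.05, adjusted p = 0.000106). Dut, the dUTPase that keeps uracil out of DNA, lay between 7.22 and 7.69 and then between 6.80 and 7.22, and fell by 0.37 (SE 0.05, adjusted p = 0.000316). Tk1, the thymidine kinase of the salvage pathway, had -0.16 (SE 0.06, adjusted p = 0.0506), and its PND50 pools (7.21 to 7.63) overlapped the PND35 range (7.36 to 7.72), with 4 of the 8 below it. Rrm1, the large subunit, averaged 5.12, under the filter value of 5.661, and had 0.01 (SE 0.05) in a fit without the filter.

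The replicative helicase genes had the next lower median, -0.31, and 7 of 9 fell. Mcm5 ranged from 7.54 to 8.38 in the PND35 pools (median 8.11) and from 7.41 to 8.13 in the PND50 pools (median 7.62), and fell by 0.38 (SE 0.11, adjusted p = 0.0178). Mcm10, which links the helicase to the polymerases, fell by 0.37 (SE 0.10) and Mcm7 by 0.36 (SE 0.07). The GINS genes were unequal: Gins4 fell by 0.32 (SE 0.09) and Gins3 by 0.15 (SE 0.04), while Gins2 had -0.09 (SE 0.05, adjusted p = 0.148), from 6.81 to 6.96 at PND35 to 6.59 to 6.94 at PND50. Mcm2 had -0.21 (SE 0.08, adjusted p = 0.051), and Gins1, whose mean of 5.03 lay under the filter, had -0.22 (SE 0.07) without it.

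Of the 7 polymerase and primase genes 5 fell. Pole, the catalytic subunit of the leading strand polymerase, ranged from 7.54 to 8.15 in the PND35 pools (median 7.85) and from 7.16 to 8.05 in the PND50 pools (median 7.40), and fell by 0.34 (SE 0.10, adjusted p = 0.0185). Prim2, the large primase subunit, fell by 0.31 (SE 0.06). Its partner Prim1 had -0.19 with an SE of 0.12 (adjusted p = 0.219), the PND50 pools reaching from 8.24 to 9.29. Pold1, the catalytic subunit of the lagging strand polymerase, had -0.07 (SE 0.04, adjusted p = 0.128), from between 8.01 and 8.25 (median 8.14) to between 7.96 and 8.19 (median 8.06). Its accessory subunit gene Pold2 fell by 0.27 (SE 0.08).

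Pcna encodes the sliding clamp and the Rfc genes its loader, and 4 of these 6 fell. Pcna ranged from 9.22 to 9.91 in the PND35 pools (median 9.53) and from 8.78 to 9.41 in the PND50 pools (median 8.95), and fell 1.40-fold, by 0.48 (SE 0.09, adjusted p = 0.00191). Rfc2, Rfc3 and Rfc5 fell by 0.18, 0.16 and 0.15. Rfc4 had -0.03 (SE 0.10, adjusted p = 0.833), and its PND50 pools (6.94 to 7.57) covered the whole PND35 range (7.05 to 7.36). Rfc1, the large subunit, had -0.10 (SE 0.05, adjusted p = 0.124).

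The 3 single-strand binding genes encode a trimer but were unequal. Rpa1, the large subunit, ranged from 8.53 to 9.09 in the PND35 pools (median 8.70) and from 8.10 to 8.53 in the PND50 pools (median 8.45), and fell by 0.39 (SE 0.05, adjusted p = 0.000165). Rpa3, the small subunit, fell by 0.25 (SE 0.07), and its other probe set had -0.39 (SE 0.06). Rpa2 had -0.05 (SE 0.06, adjusted p = 0.583), from between 7.33 and 7.93 (median 7.71) to between 7.42 and 7.85 (median 7.64).

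Of the 3 origin licensing genes 2 fell. Cdc6 ranged from 6.39 to 7.09 in the PND35 pools (median 6.74) and from 6.07 to 6.70 in the PND50 pools (median 6.44), and fell by 0.33 (SE 0.10, adjusted p = 0.0198). Gmnn, the inhibitor of Cdt1, fell by 0.14 (SE 0.05). Cdt1 had -0.10 (SE 0.06, adjusted p = 0.227), from between 6.54 and 6.91 (median 6.74) to between 6.39 and 6.87 (median 6.60). Of the 6 origin recognition genes 4 fell, by between 0.09 and 0.17. Orc4 fell by 0.17 (SE 0.03, adjusted p = 0.00216), from a range of 8.81 to 8.94 to one of 8.63 to 8.82. Orc5 had -0.08 (SE 0.04, adjusted p = 0.109), from between 8.46 and 8.57 (median 8.53) to between 8.31 and 8.53 (median 8.44). The ranges of the ages overlapped in all 6 origin recognition genes. Fen1, the flap endonuclease of Okazaki fragments, fell by 0.12 (SE 0.05, adjusted p = 0.0451), from between 5.96 and 6.53 (median 6.34) to between 6.08 and 6.29 (median 6.21). Lig1, the ligase that joins them, had -0.08 (SE 0.05, adjusted p = 0.179), from between 8.42 and 8.85 (median 8.73) to between 8.51 and 8.83 (median 8.58). Chaf1b, a subunit of the chromatin assembly factor, had -0.10 (SE 0.08, adjusted p = 0.326), and its PND50 pools (6.59 to 7.32) covered the whole PND35 range (6.78 to 7.19).

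The age change was then read within each treatment (n = 2 pools per group). After the mixture 40 of 41 genes were negative and 26 fell, where 18.3% of all genes fell and 50.3% were negative. Tyms stood at 9.04 and 9.11 in the PND35 pools and at 8.20 and 8.09 in the PND50 pools, and fell by 0.93 (SE 0.10, adjusted p = 0.000315). Rpa1 went from 8.93 and 9.09 to 8.10 and 8.16 and fell by 0.88 (SE 0.09). Rrm2 went from 8.77 and 8.98 to 7.29 and 7.22 and fell by 1.61 (SE 0.33, adjusted p = 0.00473). Pcna went from 9.65 and 9.91 to 8.78 and 8.90, and fell by 0.94 (SE 0.19). Dut fell by 0.72 (SE 0.10) and Rfc2 by 0.53 (SE 0.10). In these 6 genes the pools of the 2 ages did not overlap, and over the 41 they did not overlap in 37, all lower at PND50, where 37.4% of all genes were lower without overlap. By role, 8 of 9 helicase, 5 of 7 polymerase and primase, 3 of 4 nucleotide synthesis and all 3 single-strand binding genes fell, against 1 of 6 origin recognition genes. Orc6 fell by 0.40, and Orc2, Orc3, Orc4 and Orc5 had between -0.12 and -0.04. The count of 26 was 10 without mixture PND35 replicate 2, 16 without mixture PND50 replicate 1 and 14 without mixture PND50 replicate 2.

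After vinclozolin 28 of the 41 genes were positive and none passed the limma test, with 3 at an unadjusted p under 0.05, where 1.64% of all genes fell, 1.14% rose and 50.6% were positive. Tyms stood at 8.52 and 8.65 at PND35 and at 8.45 and 8.53 at PND50. Pole went from 7.54 and 7.69 to 7.76 and 8.05, and Mcm6 from 7.49 and 7.74 to 7.74 and 8.11. The genes with the smallest p were Rpa2 (0.31, SE 0.13, adjusted p = 0.21), from 7.33 and 7.64 to 7.82 and 7.76, and Orc4 (-0.16, SE 0.07, adjusted p = 0.222), from 8.90 and 8.89 to 8.74 and 8.74. Rrm2 had -0.41, from 7.86 and 9.03 to 8.02 and 8.05, so its PND35 pools lay on both sides of the PND50 pools. The median of 0.06 was -0.01 without vinclozolin PND50 replicate 2 and also below 0 without vinclozolin PND35 replicate 1. Over the 41 genes 10 were higher and 5 lower at PND50 without overlap, where 24.4% and 24% of all genes were.

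After genistein all 41 genes were negative and 3 fell, where 1.96% of all genes fell and 57.7% were negative. Dut went from 7.46 and 7.65 to 6.80 and 7.17 and fell by 0.57 (SE 0.10, adjusted p = 0.0272). Tyms went from 8.65 and 8.89 to 8.23 and 8.27 and fell by 0.52 (SE 0.10, adjusted p = 0.0307), and Rpa1 went from 8.74 and 9.01 to 8.42 and 8.49 and fell by 0.42 (SE 0.09, adjusted p = 0.0417). The ages did not overlap in these 3 genes nor in 31 others, 34 in all, where 33.6% of all genes were lower without overlap. The count was 0 without genistein PND35 replicate 2 or without genistein PND50 replicate 1, 1 without genistein PND50 replicate 2, and 0 in a fit of the genistein groups alone.

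In the controls 37 of 41 genes were negative and none passed the limma test, with 6 at an unadjusted p under 0.05, where 0.237% of all genes fell and 49.3% were negative. Orc4 (-0.24, SE 0.07, adjusted p = 0.11) went from 8.92 and 8.94 to 8.73 and 8.63, and Gmnn (-0.27, SE 0.09, adjusted p = 0.171) from 6.99 and 7.03 to 6.64 and 6.84. The control PND50 pools differed from each other: replicate 2 was higher than replicate 1 in 39 of the 41 genes, by a median of 0.30, where the median over all genes was -0.01. The ages did not overlap in 19 genes, all lower at PND50, where 26.8% of all genes were. Pole stood at 7.27 in replicate 1 and 7.97 in replicate 2, and Mcm6 at 7.48 and 8.08.

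**Figure D2:**
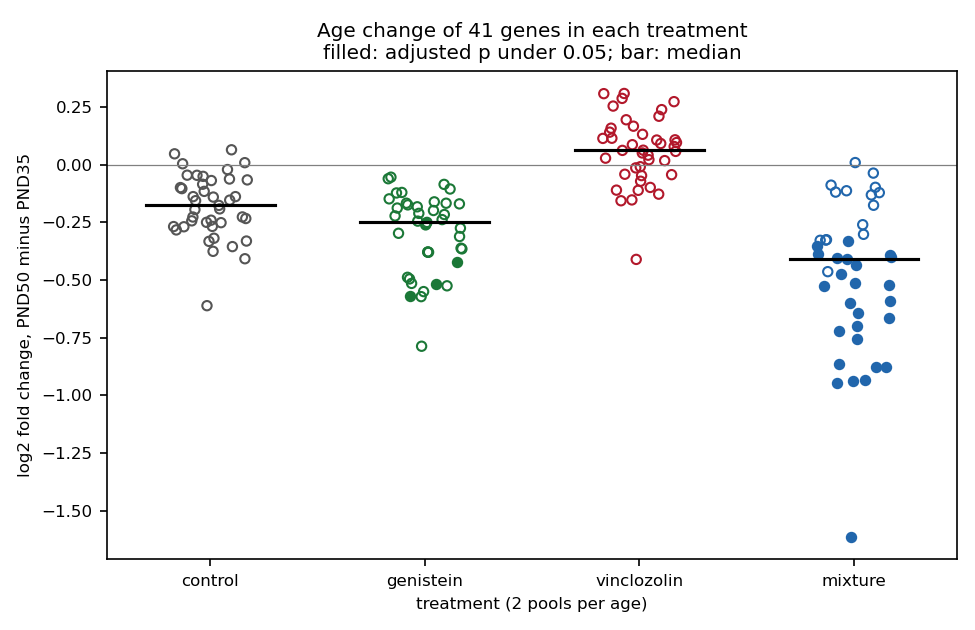
Log2 fold change from PND35 to PND50 of the 41 tested genes (points) in each treatment, with 2 pools per age; filled points passed the limma test and bars are medians. The median is 0.06 after vinclozolin and -0.41 after the mixture, and Rrm2 is the lowest point in every treatment.

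Whether the age change differed between treatments was tested as a difference of differences. Against the controls, no gene of the 41 passed with limma for genistein, vinclozolin or the mixture (1, 3 and 11 at an unadjusted p under 0.05), where 0%, 0.381% and 0% of all genes were called. For genistein the smallest p was that of Dut (-0.41, SE 0.14, adjusted p = 0.578) and for vinclozolin that of Gmnn (0.38, SE 0.13, adjusted p = 0.59). For the mixture the smallest p were those of Rpa1 (-0.65, SE 0.13) and Tyms (-0.68, SE 0.14), both with an adjusted p of 0.207. The age change after the mixture against that after vinclozolin was compared after the data had been seen, and 6 of the 41 differed, all lower after the mixture, where 1.98% of all genes were lower. Of the 41 genes 36 were negative, and so were 50.9% of all genes. They were Rpa1 (-0.84, SE 0.13, adjusted p = 0.00887), Tyms (-0.83, SE 0.14, adjusted p = 0.0118), the loader gene Rfc2 (-0.67, SE 0.14), Dut (-0.68, SE 0.14), Pole (-1.23, SE 0.29) and Mcm6 (-1.17, SE 0.28, adjusted p = 0.0432). The median over the 41 was -0.50 and over all genes -0.01. The 6 origin recognition genes had a median of 0.03 but were split. The group mean of Orc1 went from 6.56 to 6.23 after the mixture and from 6.37 to 6.52 after vinclozolin. That of Orc6 went from 6.69 to 6.29 and from 6.36 to 6.42, so the median does not describe these genes. The 6 calls became 0 without mixture PND35 replicate 2, 3 without mixture PND35 replicate 1, 2 without mixture PND50 replicate 1 or either vinclozolin PND50 pool, 1 without mixture PND50 replicate 2 and 11 without vinclozolin PND35 replicate 2. Genistein against vinclozolin, also added afterwards, had no call with limma among the 41 (17 at an unadjusted p under 0.05; median -0.38; 0.348% of all genes called), and 40 of 41 were negative, where 57.9% of all genes were.

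**Figure D3:**
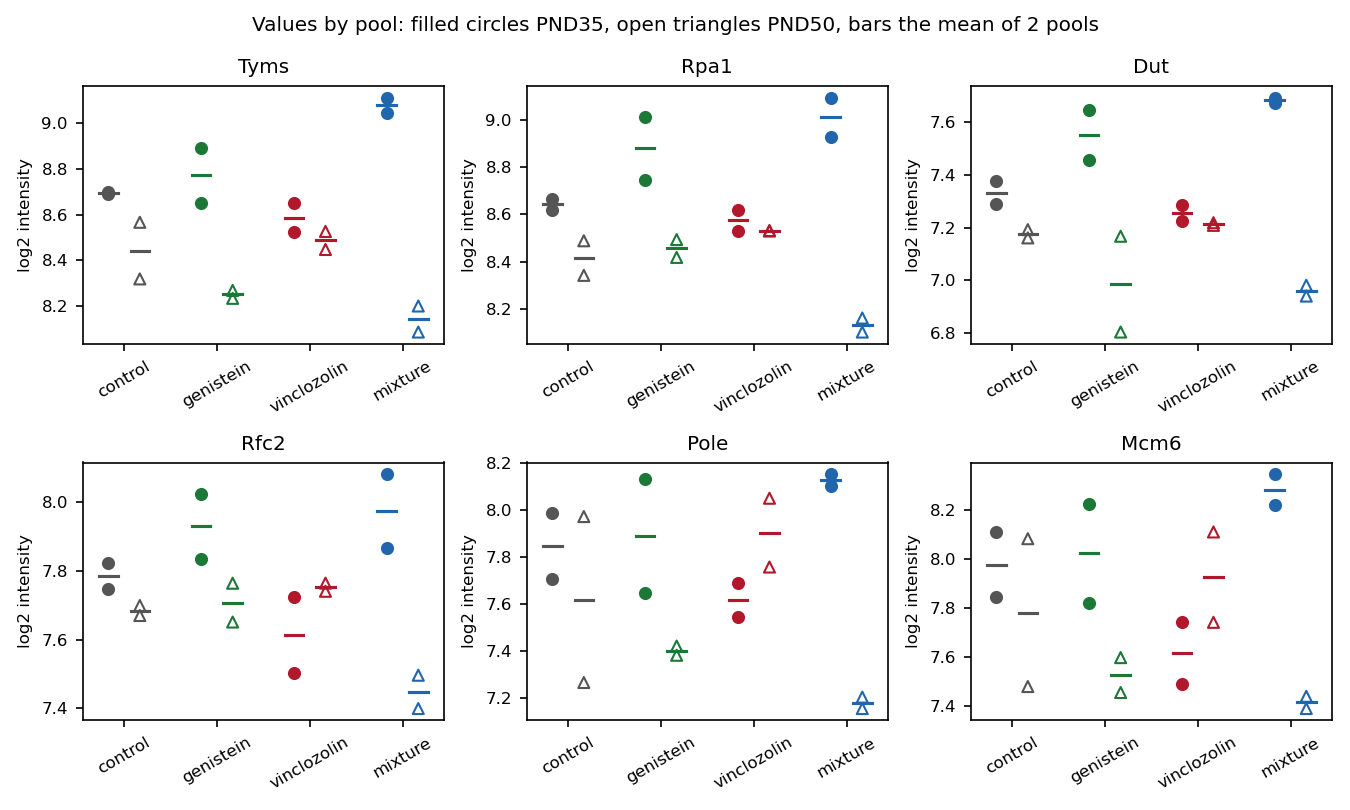
Log2 intensity (vertical axis) of the 6 genes whose age change differed between mixture and vinclozolin, in all 16 pools by treatment; filled circles are PND35 pools, open triangles PND50 pools and bars the mean of 2 pools. In the mixture the ages are far apart in every panel, and in Pole and Rfc2 both open triangles of the vinclozolin group lie above its filled circles.

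At a fixed age the exposed pools were compared with the control pools of that age, which the 3 comparisons share. At PND35 no gene of the 41 passed with limma for the mixture, genistein or vinclozolin (6, 2 and 1 at an unadjusted p under 0.05), where 0%, 0% and 1.34% of all genes were called. The mixture had 32 of 41 genes positive with a median of 0.19, genistein 28 positive with 0.03, and vinclozolin 34 negative with -0.11. Over all genes 48.7% were positive with the mixture, 60.8% positive with genistein and 56.3% negative with vinclozolin. The genistein median turned to -0.02 without control PND35 replicate 2, to -0.05 without genistein PND35 replicate 2 and to -0.01 with quantile normalisation. Rpa1 stood at 8.62 and 8.66 in the controls and at 8.93 and 9.09 after the mixture (0.37, SE 0.09, adjusted p = 0.157), and Tyms at 8.69 and 8.70 and at 9.04 and 9.11 (0.38, SE 0.10, adjusted p = 0.157). With genistein the smallest p were those of Rpa1 (0.24, SE 0.09) and Gins3 (0.21, SE 0.09, pools at 6.67 and 6.71 against 6.53 and 6.43). With vinclozolin Fen1 (-0.23, SE 0.09, adjusted p = 0.287) stood at 5.96 and 6.26 against 6.38 and 6.30, and Mcm10 (-0.38, SE 0.19) at 7.89 and 7.99 against 8.29 and 8.36. Vinclozolin replicate 1 was below replicate 2 in 36 of the 41 genes, by a median of 0.19.

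Set against vinclozolin at PND35, the mixture had 37 of 41 genes positive (median 0.29), where 53.9% of all genes were, and Tyms was higher by 0.49 (SE 0.10, adjusted p = 0.0257) and Rpa1 by 0.44 (SE 0.09, adjusted p = 0.0339), where 1.16% of all genes were higher. Tyms stood at 9.04 and 9.11 against 8.52 and 8.65, and Rpa1 at 8.93 and 9.09 against 8.62 and 8.53. Dut (0.43, adjusted p = 0.0504) and Fen1 (0.38, adjusted p = 0.0521) were just outside the threshold. Both calls were lost without mixture PND35 replicate 2 and in a fit of these groups alone; 1 was left without vinclozolin PND35 replicate 1, without mixture PND35 replicate 1, and without either control PND35, vinclozolin PND50 or mixture PND50 pool. Against genistein at PND35 the mixture had 32 of 41 positive (median 0.11) and no call with limma (2 at an unadjusted p under 0.05), where 0% of all genes were called and 40% were positive, with Tyms at 0.31 (SE 0.10, adjusted p = 0.328) and Rpa3 at 0.38 (SE 0.14).

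At PND50 no gene of the 41 passed with limma in any exposure against control, where no gene of all those tested was called with genistein or vinclozolin and 0.00848% with the mixture. The counts at an unadjusted p under 0.05 were 1 for genistein, 2 for vinclozolin and 4 for the mixture. The median was -0.10 with the mixture (36 of 41 negative), -0.07 with genistein (30 negative) and 0.10 with vinclozolin (36 positive). Over all genes 56.5%, 52.3% and 42.7% had these signs. These 3 medians changed sign with 1 control pool: without control PND50 replicate 2 the mixture had 0.01 and genistein 0.09, and without control PND50 replicate 1 vinclozolin had -0.05. Pold2 stood at 8.11 in both mixture pools and at 8.35 and 8.88 in the controls (-0.50, SE 0.16, adjusted p = 0.539), and Tyms at 8.20 and 8.09 against 8.32 and 8.57 (-0.30, SE 0.10, adjusted p = 0.539). Gmnn had the smallest p with vinclozolin, at 6.91 and 7.17 against 6.64 and 6.84 (0.30, SE 0.09, adjusted p = 0.798), and with genistein, at 6.93 and 6.98 (0.21, SE 0.09). Against vinclozolin alone the mixture had 35 of 41 negative, a median of -0.25 and no call with limma (16 at an unadjusted p under 0.05; 0.0339% of all genes called and 47.1% negative), with Rpa1 at -0.40 (SE 0.09, adjusted p = 0.179) and Pole at -0.72 (SE 0.21). Against genistein alone it had 27 negative and no call with limma (3 at an unadjusted p under 0.05; 0.0254% of all genes called and 55% negative), with Rpa1 at -0.32 (SE 0.09, adjusted p = 0.38) and Rfc2 at -0.26 (SE 0.10). In the fit of the groups compared alone, 2 genes passed in mixture against vinclozolin.

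The same treatment had the highest or the lowest group mean in most of the 41, a description of genes that varied together. The share of all genes with this order was not counted. The mixture had the highest of the 4 means at PND35 in 29 genes and the lowest at PND50 in 26. Vinclozolin had the lowest at PND35 in 31 and the highest at PND50 in 34. The mean centred value over the 41 genes, a score used as a description, was 0.22 and 0.28 in the mixture pools of PND35 and -0.25 and -0.21 in those of PND50. It was 0.14 and 0.05, then -0.24 and 0.07, in the controls; 0.04 and 0.24, then -0.16 and -0.16, with genistein; and -0.13 and 0.07, then -0.04 and 0.10, with vinclozolin. The scores of the ages overlapped in the control and vinclozolin groups and did not in the genistein and mixture groups.

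The genes varied together over the 16 pools. The correlation of a gene with the mean of the other 40 had a median of 0.83 and exceeded 0.8 in 27 of 41; all points share the same pools and arrays, so this is a description. Mcm5 (0.97), Pcna (0.97) and Mcm6 (0.96) followed the rest most closely. Within PND35 alone the median was 0.84 and within PND50 alone 0.85. Orc5 (0.26), Rfc1 (0.27), Orc2 (0.43), Orc4 (0.48) and Rfc4 (0.49) followed it least, and within PND35 Orc5 ran the opposite way (-0.69).

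Other genes of the cell cycle were read from 4 lists. In the age average 25.2% of all genes fell and 19.4% rose, with a median of -0.01. Of 21 other replication factors 12 fell and none rose in the age average (median -0.15), among them the histone chaperone Nasp by 0.48 (SE 0.06), the fork protection factor Tipin by 0.43 (SE 0.08), the fork scaffold Wdhd1 by 0.31 (SE 0.06) and the histone chaperone Ssrp1 by 0.22 (SE 0.04). Of 27 other nucleotide metabolism genes 14 fell and 1 rose (median -0.11). Nme2, a nucleoside diphosphate kinase, fell by 0.35 (SE 0.04), Ppat of purine synthesis by 0.27 (SE 0.05) and Cad of pyrimidine synthesis by 0.22 (SE 0.04), while Dguok, the mitochondrial deoxyguanosine kinase, rose by 0.22 (SE 0.03).

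Of 26 genes of G1/S control 14 fell and 2 rose (median -0.27), where 25.2% of all genes fell and 19.4% rose in the age average. Rb1, the retinoblastoma protein that holds E2F in check, rose by 0.51 (SE 0.06), and the G1 kinase gene Cdk6 rose by 0.27. The S phase partners Cdk2 and Ccne2 fell by 0.26 (SE 0.04) and 0.43 (SE 0.07), and the Cdk inhibitor gene Cdkn1a fell by 0.52 (SE 0.08). Of 26 mitosis genes 25 fell (median -0.65), with Ndc80 of the kinetochore down by 0.84 (SE 0.13), Prc1 of the spindle midzone by 0.79 (SE 0.11), and Bub1b of the spindle checkpoint and the motor Kif11 by 0.71 each (SE 0.09 and 0.10). By treatment, the mitosis medians were -1.40 after the mixture (25 of 26 fell), -0.74 after genistein (1 fell), -0.53 in the controls (0 passed with limma, 13 at an unadjusted p under 0.05) and 0.11 after vinclozolin (0 passed, 0 at an unadjusted p under 0.05, 23 of 26 positive). Over all genes 18.3% fell after the mixture, 1.96% after genistein, 0.237% in the controls and 1.64% after vinclozolin, where 50.6% were positive. In the mixture against vinclozolin difference 20 of the 26 were lower, where 1.98% of all genes were lower.

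Markers of other tissues moved beside these genes. In the age average 25.2% of all genes fell and 19.4% rose, and 51.9% were negative and 48.1% positive. All 12 tested skeletal muscle markers were negative in the age average and 11 fell (median -1.29); their score ranged from -0.10 to 2.26 in the PND35 pools and from -2.00 to 1.25 in the PND50 pools. It was 0.88 and 2.26, then -0.92 and -2.00, in the mixture pools and -0.10 and 0.21, then 1.25 and 0.04, in the vinclozolin pools. Of the 12 markers 11 were also lower in the mixture against vinclozolin difference (median -3.73), where 1.98% of all genes were lower. The pool with the highest muscle score, mixture PND35 replicate 2, also had the highest score over the 41 replication genes, 0.28. All 5 erythroid markers fell (median -1.18; score 0.14 to 0.95, then -0.76 to -0.25), 7 of 8 lymphocyte markers rose (median 0.24; score -0.40 to -0.14, then 0.15 to 0.39), and 5 of 10 adipocyte markers fell (median -0.25). All 16 luminal epithelium markers passed the filter and were positive, and 10 rose (median 0.24), with a score of -0.35 to 0.21 in the PND35 pools and of 0.03 to 0.19 in the PND50 pools. Macrophage (1 of 11 fell, 3 rose), endothelial (1 of 4 fell, 1 rose) and basal markers (1 of 6 fell, 2 rose) had calls in both directions, as all genes had. The hair follicle and epidermis score was 2.36 and 1.88 in the vinclozolin PND35 pools and between -0.42 and -0.15 in the other 14, and 8 of its 11 markers fell in the age average. The part of these tissues in the replication gene result was not tested.

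**Figure D4:**
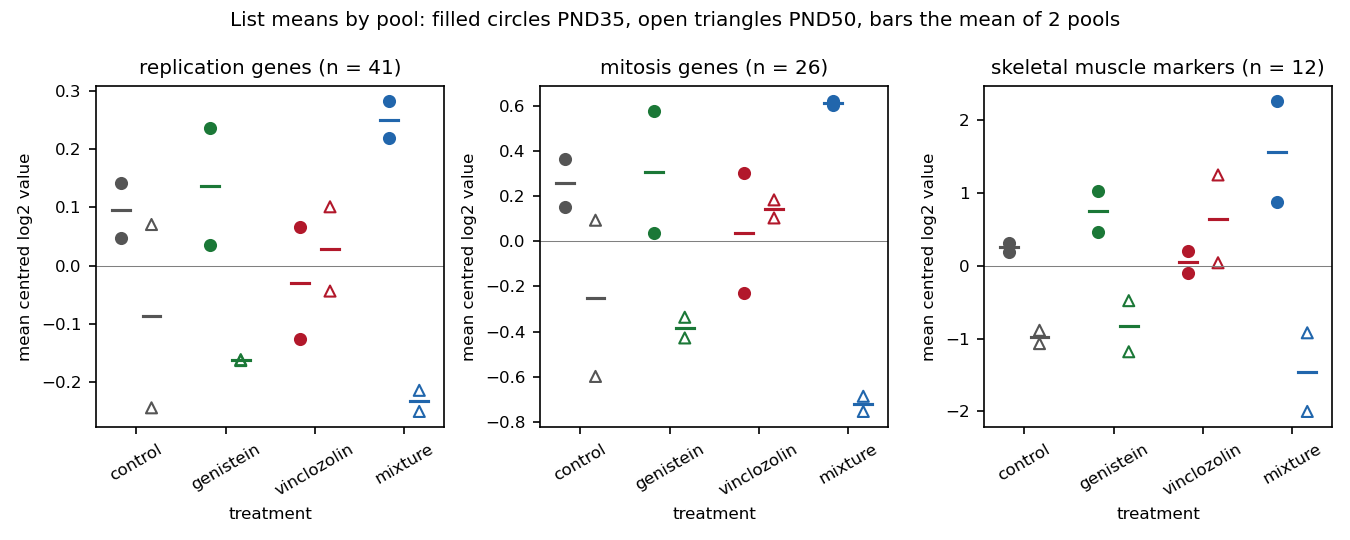
Mean centred log2 value (vertical axis) over the 41 replication and nucleotide synthesis genes, 26 mitosis genes and 12 skeletal muscle markers, by treatment; filled circles are PND35 pools, open triangles PND50 pools and bars the mean of 2 pools. In all panels the mixture has the highest PND35 and the lowest PND50 mean, and vinclozolin alone has a PND50 mean above its PND35 mean.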

How the data were processed

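RNA pools of 5 glands were labelled with a whole-transcript kit and hybridised to Affymetrix arrays, per the labels' protocols. The deposited values run from 2.2 to 13.95 and are treated as log2 intensities; how the authors summarised and normalised them, and the log base, is not given in the sources used here, so every log2 value assumes that base. Of 27342 probe sets, 15097 had 1 gene symbol, 323 had several and were not used, and 11922 were unnamed here; 15067 of the 15097 matched RefSeq (GRCr8) by gene identifier. The probe set of highest mean stood for a gene, and genes under the 25th percentile (5.661) were left out, which left 11796 of 14324. limma 3.58.1 (R 4.3.3) fitted 8 group means to 16 arrays with 8 residual degrees of freedom, and p-values are two-sided and adjusted over all genes tested. They measure the spread between pools, and comparisons that share pools are not independent. Litters were not in the fit, so any litter shared between pools was not accounted for. The code was tested on simulated data. Figures were drawn with matplotlib 3.10.9 (Python 3.11.15).

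The genes and the lists were chosen with earlier results of these data known. Pool values are given for the lowest and highest gene of each role in the age average, for up to 6 called genes per other comparison by smallest p, and for the 2 of smallest p where none was called; up to 4 genes of each context list were named by smallest p. Cdk6 was named after its value was seen, as 1 of the 2 G1/S genes that rose. Alternatives were other filters and scalings, array weights, a replicate block, fits of the compared groups alone, another threshold and each pool left out. Promoter entries were not used for Orc1, Orc4, Cdc6, Mcm4, Gins4, Rpa3 and Rrm2.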

Additional observations from a re-analysis of the deposited data

Results flagged for a closer look

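The age change differed between the mixture and vinclozolin groups, by a test of the difference itself, in 6 of the 41 genes, all lower after the mixture, where 1.98% of all genes were lower. The differences (mixture minus vinclozolin, log2) were -1.23 for Pole, -1.17 for Mcm6, -0.84 for Rpa1, -0.83 for Tyms, -0.68 for Dut and -0.67 for Rfc2. Each group held 2 pools, and the comparison was added after the data were seen. The count of 6 was 0 without mixture PND35 replicate 2, and ranged from 0 to 11 over the fits with 1 pool left out.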

How the results depend on the processing

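No called gene changed direction in any alternative. The median over the 41 genes changed sign in 6 comparisons with no call: the age change after vinclozolin, genistein against control at PND35, all 3 exposures against control at PND50, and the age change after genistein minus that in the controls (-0.10, and 0.03 without control PND50 replicate 2). Of the 18 planned and 2 added comparisons, 13 had 0 of the 41 genes called in every setting. The 28 calls of the age average were 20 to 29 with 1 pool left out and 5 without the mixture groups. The 3 calls of the age change after genistein were 1 with quantile normalisation, 1 with array weights, 0 in the groups compared alone, 6 at an adjusted p of 0.1 and 0 to 4 with 1 pool left out. The 26 calls after the mixture were 10 to 29 with 1 pool left out. The 2 calls of mixture against vinclozolin at PND35 were 1 with quantile normalisation, 0 with array weights, 0 in the groups compared alone, 8 at 0.1 and 0 to 3 with 1 pool left out; at PND50 the 0 calls became 2 in the groups compared alone. The 6 calls of the mixture minus vinclozolin age change were 15 at 0.1 and 0 to 11 with 1 pool left out, and the 0 of genistein minus vinclozolin were 0 to 1. The cause of these changes was not tested. The fits with a pool left out and those of the compared groups alone also held fewer pools. No pairing of the pools by replicate number was seen, though the check cannot exclude one. Over 28 pairs of groups the correlation of deviations ran from -0.37 to 0.30 (median 0.04). Of 16 pools 8 matched best to their own number. With the replicate number as a block the counts were 30 for the age average, 4 for genistein, 27 for the mixture, 5 for mixture against vinclozolin at PND35 and 8 for the mixture minus vinclozolin age change. Depth is not defined for arrays; the 2 pools per group limit the precision.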
